A study of Rattus rattus with 18 samples.

Results

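The rat-discovered miRNAs are those numbered 3540 to 3599 in the rat miRNA catalogue, the block of names given to miRNAs first reported in this species. Members were taken by name alone, with any letter or arm: 66 of the 761 miRNA probes on the array, from 48 hairpin numbers. They are compared with the 695 other miRNA probes of the same arrays. Brain tissue of Sprague-Dawley rats was measured on 18 arrays. Every rat gave 2, from tissue named core and tissue named peri, and the 9 rats were 3 sham controls, 3 with transient middle cerebral artery occlusion (tMCAO) and 3 labelled Remote limb postconditioning (PostC). In tMCAO a filament advanced through the carotid closes the artery and is then withdrawn, and sham rats had surgery alone. The labels do not say whether PostC rats also underwent tMCAO, and neither the labels nor the study's methods give the time of sacrifice that applies to the arrays, the age of the rats on them, or whether animals were pooled. The labels place core in the temporo-parietal cortex and peri in the Striatum, whereas the study's text pairs these names the other way round. The labels name the species Rattus rattus and the title of the series Rattus norvegicus.

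A miRNA is a short RNA cut from a hairpin precursor, and either arm of the hairpin (5p or 3p) can be kept. It guides a protein complex to messenger RNAs mainly through its seed, bases 2 to 8, and lowers their translation or stability. Names with high numbers were mostly given to sequences found late, by deep sequencing, and many of these are of low abundance in the tissues where the early-named miRNAs, such as the let-7 and miR-29 families, are plentiful. In the brain, let-7 miRNAs accompany neuronal differentiation, miR-29 miRNAs are made by neurons and glia, miR-210 is induced by low oxygen, miR-378a lies in a gene of energy metabolism, and miR-122 is the miRNA of hepatocytes.

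A search of the mature sequences deposited with the arrays showed what many members share. Of the 66 members, 31 (47.0%) contained a run of at least 16 bases that was the reverse complement of another miRNA on the array, each of a different partner. Among the 695 other probes, 38 (5.47%) had such a run with another of those probes. In 24 of the 31 the run covered the whole of the shorter sequence. The members whose levels changed, and the relatives that show how the pairs and families are built, are printed with the seed in capitals, each member followed by its reverse-complement partner, and at the end the 2 arms of miR-3594, which have none.
miR-3557-5p: gCCUUCUGacuccaaguccagu
miR-378a-3p: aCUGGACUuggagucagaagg
miR-3591: aACACCAUugucacacucca
miR-122-5p: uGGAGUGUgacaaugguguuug
miR-3574: uCAGCCGCugucacacgcacag
miR-210-3p: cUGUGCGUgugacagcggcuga
miR-3596a: aACUAUACaaccuacuaccuca
let-7a-5p: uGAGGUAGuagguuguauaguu
miR-3596b: aACUAUGCaaccuacuaccu
let-7d-5p: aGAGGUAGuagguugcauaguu
miR-3596c: aCUAUACAaccuccuaccuca
let-7e-5p: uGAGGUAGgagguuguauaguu
miR-3596d: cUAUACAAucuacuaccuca
let-7f-5p: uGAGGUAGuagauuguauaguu
miR-3587: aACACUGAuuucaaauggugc
miR-29b-3p: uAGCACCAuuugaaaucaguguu
miR-3556a: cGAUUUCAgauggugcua
miR-29a-3p: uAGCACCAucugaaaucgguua
miR-3556b: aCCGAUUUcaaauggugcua
miR-29c-3p: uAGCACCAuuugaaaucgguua
miR-3594-3p: cACACCGCcucugcccgcuagu
miR-3594-5p: cCCAGGGCagagcagugugaa

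The shared run was 21 bases for miR-3557-5p, 20 for miR-3591, 22 for miR-3574, 21 for miR-3587, 22 for miR-3596a and 20 for miR-3596b. Neither arm of miR-3594 had a partner. No member had the seed of another member, and 4 had the seed of another array miRNA: miR-3568 that of miR-22-5p, miR-3573-5p that of miR-423-5p, miR-3586-5p that of miR-339-5p, and miR-3596d that of 4 3p arms (let-7a-1-3p, let-7b-3p, let-7f-1-3p and miR-98-3p). The 4 miR-3596 members differed from each other by 1 or 2 bases where they align, as did miR-3556a, miR-3556b and miR-3587, so their probes could not separate them with certainty. Length and base composition were much alike in the 2 sets: the median length was 22 bases in each, and the median GC content was 48.9% in members and 47.8% in the others.

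The first question was whether the members stood above the empty spots. A probe was called detected on an array when the median of its 4 spots was above a limit set by the 612 empty spots, namely their median plus 3 scaled median absolute deviations. Between 0 and 45 of the 66 members were detected per array, with a median of 8.5. The share of members detected was below that of the other probes on each of the 18 arrays, also when the limit was set by the dimmest 25% of miRNA spots instead, and ran from 0% to 68.2%, against 26.9% to 80.6% of the others. No array file gives a depth or a count, and precision is limited by the 3 rats in each group and the dimness of the members.

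**Figure D1:**
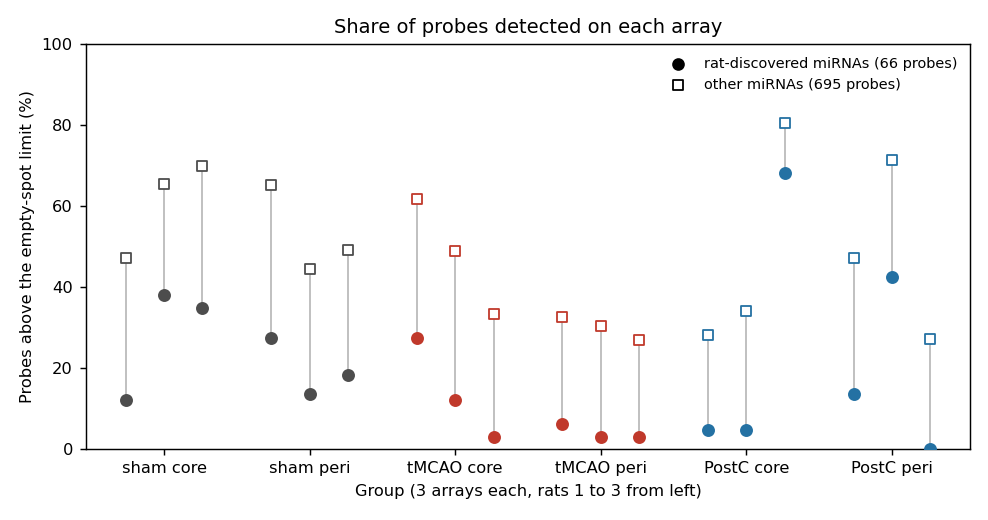
Share of probes above the empty-spot limit (%) on each of the 18 arrays, by group; filled circles are the 66 rat-discovered miRNAs, open squares the 695 other miRNAs, and a line joins the values of an array. The circle lies below the square on 18 of 18 arrays, and the third PostC core array is the highest for the members, at 68.2%.

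In sham core, 8, 23 and 25 members were detected, and in sham peri 9, 12 and 18. After tMCAO the numbers were 2, 8 and 18 in core and 2, 2 and 4 in peri. In PostC rats they were 3, 3 and 45 in core and 0, 9 and 28 in peri, sorted within each group. The peri arrays after tMCAO were all below the sham peri arrays, whereas every other pair of conditions overlapped within a region. As shares of the 66 members these numbers came to 28.3% ± 14.1 in sham core, 19.7% ± 6.94 in sham peri, 14.1% ± 12.2 in tMCAO core, 4.04% ± 1.75 in tMCAO peri, 25.8% ± 36.7 in PostC core and 18.7% ± 21.7 in PostC peri (SD, n = 3). The share of the other probes was higher in each group, in the same order of groups 60.9%, 52.9%, 48.0%, 29.9%, 47.6% and 48.5%. For both sets it was highest in sham core and lowest in tMCAO peri, whereas PostC core, which holds the array of 45 members, ranked second for the members and below tMCAO core for the others. The limit itself moved with the groups, with a median of 108 intensity units on the sham arrays, 177 on the tMCAO arrays and 182 on the PostC arrays. With the limit from dim miRNA spots, 20 to 30 members were detected on sham arrays, 18 to 25 on tMCAO arrays and 9 to 32 on PostC arrays, with overlap between all conditions over both regions. Within peri the tMCAO arrays, at 21, 19 and 21, were still all below the sham arrays, at 23, 28 and 29. The other probes separated there too, at 62.7%, 64.7% and 65.5% on tMCAO peri arrays against 68.9%, 72.7% and 68.3% on sham peri arrays. With the empty-spot limit these shares of the other probes were 32.5%, 30.4% and 26.9% against 65.2%, 44.5% and 49.2%.

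The array of the third PostC core sample stood apart: it detected 45 members, and its median miRNA spot, 261 units, was the brightest of the 18. On it alone 10 members and 36 other probes were detected. Its exclusion from the count of arrays left 24 members rather than 28 for testing, and the numbers of calls given below were then as they were with it. The second array of the same rat, PostC peri 3, detected no member.

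Over the 18 arrays, 19 members (28.8%) were never detected, against 104 (15%) of the other probes. A further 19 were detected on 1 or 2 arrays. None was detected on all arrays, as 141 (20.3%) of the others were. The member found most often was miR-3574, on 17 arrays. It was followed by miR-3584-5p on 15, named here after its values were seen, and by miR-3591 on 12. The 19 never detected were miR-3544, miR-3551-3p, miR-3551-5p, miR-3558-3p, miR-3560, miR-3561-5p, miR-3566, miR-3570, miR-3578, miR-3580-3p, miR-3583-5p, miR-3584-3p, miR-3585-3p, miR-3585-5p, miR-3589, miR-3590-3p, miR-3592, miR-3593-5p and miR-3595. A miss shows only that a probe was not above the limit of that array, since the median member spot lay below the median empty spot on 11 arrays.

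**Figure D2:**
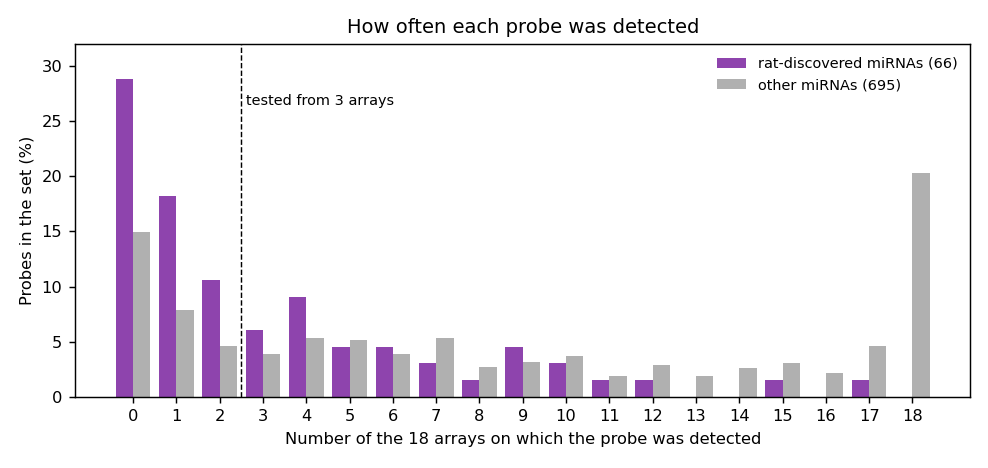
Distribution of the number of arrays, 0 to 18, on which each probe was detected, as percent of the 66 rat-discovered miRNAs (purple) and of the 695 other miRNAs (grey). Members gather at the left, with 28.8% at 0 arrays and none at 18, where 20.3% of the others lie, and the dashed line marks the minimum of 3 arrays for a test.

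A minimum of 3 arrays left 28 of 66 members (42.4%) and 504 of 695 other probes (72.5%) for testing. Members with a reverse-complement partner passed it in 12 of 31 cases (38.7%) and members without in 16 of 35 (45.7%). The partners were detected more widely: 13 of the 31 were found on all arrays and 1, miR-183-5p, on none. A member was detected on fewer arrays than its partner in 26 pairs, on the same number in 2 and on more in 3. The clearest case of the last kind was miR-3591, found on 12 arrays, whereas its partner, the liver miRNA miR-122-5p, was found on 1 and could not be tested. The other 2 were miR-3574, on 17 arrays against 12 for miR-210-3p, and miR-3553, on 2 arrays against none for miR-183-5p. These 2 pairs and the pair of miR-3591 were picked out after their values were seen.

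The second question was what changed after tMCAO. Levels are normalized log2 intensities, with the core and peri values of each rat averaged, and the changes were tested with limma over all 532 detected probes. Of the 28 tested members, 7 (25%) passed the threshold, an adjusted p of 0.05, where 11.8% of all tested probes did, and 11 had an unadjusted p under 0.05 (background 31.4%). Tested without the detection filter, 8 of all 66 members (12.1%) passed, near the 9.99% of all probes, so the higher share was seen only among members that passed the filter. Fewer miRNA molecules per cell and fewer cells holding them cannot be told apart in tissue RNA. Members lower after tMCAO were miR-3557-5p, miR-3591, miR-3574, miR-3596a, miR-3596b and miR-3587, 6 of 28 against a background of 7.33% for falls. The 1 that was higher was miR-3594-3p, against 4.51% for rises. Of the 28 tested members, 12 were above the limit on no tMCAO array and so passed the filter through sham or PostC arrays alone, which favours a fall. Over all 66 members, with no filter, 40 were lower and 26 higher, with a median difference of -0.08 on the log2 scale (-0.01 over all probes). The 3 rats of each group did not overlap for 14 of the 28 tested members (background 41%). The sham and tMCAO arrays also differed in miRNAs of other tissues: the muscle miRNAs miR-1-3p and miR-206-3p were detected on 6 and 6 of 6 sham arrays and on 0 and 2 of 6 tMCAO arrays, and the oligodendrocyte miRNA miR-219a-5p on 5 and 0, and in PostC rats these 3 were each detected on 3 of 6. The second oligodendrocyte miRNA checked, miR-338-3p, was detected on 6 sham, 5 tMCAO and 5 PostC arrays, and the endocrine miRNA miR-375-3p on 3, 0 and 1. All 5 neuronal miRNAs checked were detected on 18 arrays. The part of these differences in the members' values was not tested.

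Among the members that fell, miR-3557-5p is the reverse complement of miR-378a-3p. In core it measured 7.98, 8.47 and 8.55 log2 units in sham rats, 6.81, 6.93 and 6.54 after tMCAO and 7.64, 8.33 and 9.54 in PostC rats. In peri the values were 8.68, 9.67 and 9.17 in sham rats, 7.46, 6.92 and 6.80 after tMCAO and 9.24, 9.87 and 6.87 in PostC rats. Every tMCAO array lay below every sham array of its region, and the PostC arrays spread over both, with the peri array of the third PostC rat at the tMCAO level. The difference of rat means was -1.84 (SE 0.28, adjusted p = 0.00555). On 6 of 6 sham arrays and on none of the 6 tMCAO arrays it was above the empty-spot limit, which puts it at least 1.99-fold lower after tMCAO. That bound sets the sham mean against, on each tMCAO array, the lowest level among detected probes or the probe's own level if higher. Its call held in all 23 alternative settings, which include leaving out each rat in turn, with adjusted p from 0.00226 to 0.0471.

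miR-3591, the reverse complement of miR-122-5p, was lower as well. In core it measured 8.69, 10.57 and 8.50 in sham rats, 7.32, 7.03 and 7.18 after tMCAO and 10.90, 9.93 and 10.99 in PostC rats. In peri it measured 9.21, 9.60 and 9.62 in sham rats, 7.95, 7.64 and 8.36 after tMCAO and 9.72, 9.82 and 7.75 in PostC rats. The tMCAO arrays were again the lowest in each region with no overlap with sham, and 1 PostC peri array, that of the third rat, lay among them. The rat means differed by -1.78 (SE 0.35, adjusted p = 0.00950), with detection on 6 of 6 sham and 1 of 6 tMCAO arrays. That fitted difference therefore does not measure the size of the fall, and it ran from -4.04 to -1.42 over the alternatives. Its call was lost without the second tMCAO rat (adjusted p = 0.0598) and with the methods' t-test (0.0855), within a range of 0.00246 to 0.0855 over 23 alternatives.

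miR-3574, the reverse complement of miR-210-3p, was the 1 called member detected on every sham and tMCAO array, so its fall was measured on both sides. In core it measured 9.92, 10.64 and 9.86 in sham rats, 8.94, 9.22 and 8.83 after tMCAO and 11.83, 10.51 and 11.59 in PostC rats. In peri the values were 10.37, 10.40 and 10.86 in sham rats, 8.83, 8.77 and 9.66 after tMCAO and 10.69, 10.89 and 8.84 in PostC rats. Sham and tMCAO did not overlap in either region, and 2 of the 3 PostC core arrays were the highest of the core. The difference of rat means after tMCAO was -1.30 (SE 0.29, adjusted p = 0.0178), a 2.46-fold lower level. It passed the threshold in 20 of 23 alternatives and was lost with plain background subtraction (adjusted p = 0.0723) and without the first (0.0792) or the second tMCAO rat (0.0773).

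The 2 let-7 complements miR-3596a and miR-3596b fell less. The rat means of miR-3596a were 8.07, 8.12 and 8.43 in sham rats, 7.53, 7.52 and 7.13 after tMCAO and 8.33, 8.37 and 7.98 in PostC rats. Those of miR-3596b were 8.01, 7.66 and 8.40 in sham rats, 7.32, 7.20 and 7.15 after tMCAO and 8.24, 8.26 and 8.04 in PostC rats. For each of them the tMCAO rats were below all others. The differences from sham were -0.81 (SE 0.21, adjusted p = 0.0326) for miR-3596a and -0.80 (SE 0.21, adjusted p = 0.0351) for miR-3596b. miR-3596a was above the limit on 6 of 6 sham and 1 of 6 tMCAO arrays, and miR-3596b on 6 and 0, at least 1.13-fold lower. Neither fitted difference therefore measures the size of the fall. The 2 sequences differ by 1 base in 20 aligned, so they may not be independent measurements, which was not tested. Both calls were less stable, lost in 9 and 11 of 23 alternatives, which reached adjusted p values of 0.233 and 0.187. Their sister sequences did not pass the threshold: miR-3596d differed by -0.23 (SE 0.16, adjusted p = 0.336) and miR-3596c by 0.44 (SE 0.34, adjusted p = 0.387). Without the third tMCAO rat, miR-3596c was 0.87 higher and passed (adjusted p = 0.0364), while miR-3596a and miR-3596b, at -0.68 and -0.76, did not (adjusted p = 0.0738 and 0.0680).

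miR-3587, the reverse complement of miR-29b-3p, had a fitted difference of -0.41 (SE 0.11, adjusted p = 0.0351). Its rat means were 6.55, 6.76 and 6.81 in sham rats, 6.35, 6.24 and 6.30 after tMCAO and 6.40, 6.23 and 6.47 in PostC rats. It was above the limit on 2 of 6 sham arrays and on no tMCAO array, so no fold can be given, and its call was lost in 10 of 22 alternatives. With median scaling its difference was -0.06 while that of all probes had a median of -0.21, so relative to the other miRNAs its direction turned. The near-identical miR-3556a and miR-3556b, complements of miR-29a-3p and miR-29c-3p, gave -0.39 (adjusted p = 0.0732) and -0.31 (adjusted p = 0.0732).

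**Figure D3:**
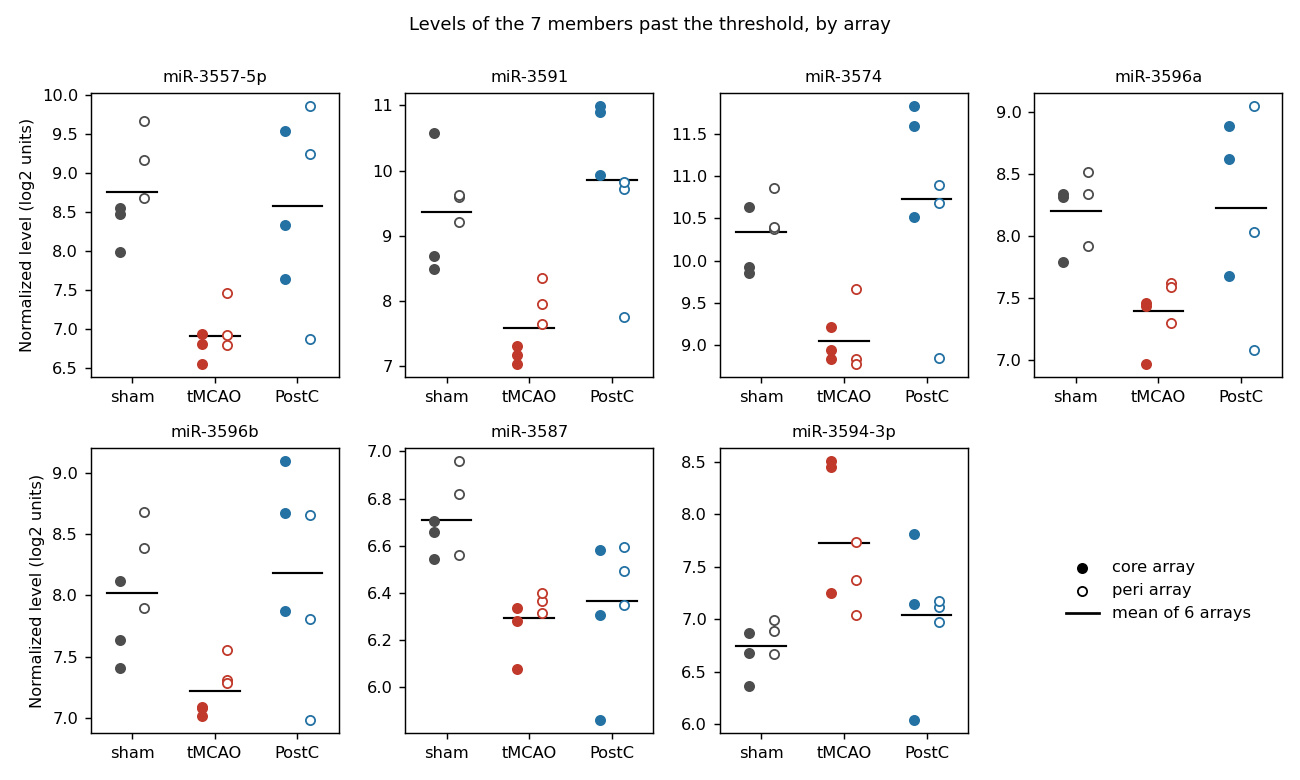
Normalized levels (log2 units) of the 7 members past the threshold after tMCAO, by condition; filled points are core arrays, open points peri arrays (3 each) and black lines the mean of the 6 arrays. For miR-3557-5p, miR-3591 and miR-3574 every tMCAO array lies below every sham array of its region, and for miR-3594-3p every tMCAO array lies above.

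miR-3594-3p, which has no reverse-complement partner on the array, was the 1 member that rose past the threshold among the 28 tested with loess and all rats. Other settings on all rats called other rises, those of miR-3547 with plain background subtraction, miR-3549 with the limit from dim miRNA spots, and miR-3549 and miR-3584-3p, the latter never above the empty-spot limit, with no filter on detection. In core it measured 6.87, 6.37 and 6.68 in sham rats, 8.46, 8.51 and 7.25 after tMCAO and 7.81, 7.14 and 6.04 in PostC rats. In peri it measured 6.89, 6.67 and 6.99 in sham rats, 7.74, 7.38 and 7.04 after tMCAO and 7.12, 6.98 and 7.17 in PostC rats. The tMCAO arrays were above the sham arrays in each region without overlap, though the nearest peri arrays, at 6.99 and 7.04, were close. The difference of rat means was 0.98 (SE 0.28, adjusted p = 0.0439). It was above the empty-spot limit on 2 of 6 sham and 3 of 6 tMCAO arrays, and the call was lost in 11 of 23 alternatives, with adjusted p up to 0.167. The other arm, miR-3594-5p, lay on the opposite side, at -0.82 (SE 0.25, adjusted p = 0.0583), short of the threshold. The next largest rises were those of miR-3547, 0.72 (SE 0.33, adjusted p = 0.160), and miR-3593-3p, 0.47 (SE 0.34, adjusted p = 0.345).

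Of the 7 called members, 6 had a reverse-complement partner and 1 had none. The filter bears on this count too, since 8 of the 12 tested members with a partner were above the limit on no tMCAO array. Over all members with no filter, 21 of 31 with a partner were lower after tMCAO, with a median of -0.15, and 19 of 35 without, with a median of -0.04. The split by partner was made after the calls had been seen and carries no test. Where the partner was tested too, its own change is given beside that of the member. miR-378a-3p differed by 0.29 (adjusted p = 0.581), miR-210-3p by 0.18 (adjusted p = 0.714), let-7a-5p by 0.72 (adjusted p = 0.0776) and let-7d-5p by 0.48 (adjusted p = 0.160), none past the threshold. Of these, miR-378a-3p, let-7a-5p and let-7d-5p were detected on all arrays, and their fitted differences had the opposite sign to those of their called members. That of miR-210-3p, above the limit on 6 of 6 sham and 2 of 6 tMCAO arrays, did too. As none of them passed the threshold, their signs are not settled. Among the tested partners of called members the exception was miR-29b-3p, which fell by 2.44 (SE 0.44, adjusted p = 0.00950), with the sign of miR-3587. Of the other pairs, miR-29c-3p differed by -1.32 (adjusted p = 0.0765), miR-29a-3p by 0.02 (0.944), let-7e-5p by 0.81 (0.0694), let-7f-5p by -0.05 (0.876), miR-125b-5p by 0.26 (0.175) and miR-539-5p by -0.25 (0.523). The members facing these last 2 were miR-3588, at -0.20 (adjusted p = 0.237), and miR-3576, at -0.28 (adjusted p = 0.339). In these other pairs miR-29c-3p, let-7e-5p, let-7f-5p and miR-539-5p had the sign of their members, and miR-29a-3p and miR-125b-5p the opposite one. The difference between a member's change and its partner's was not tested.

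**Figure D4:**
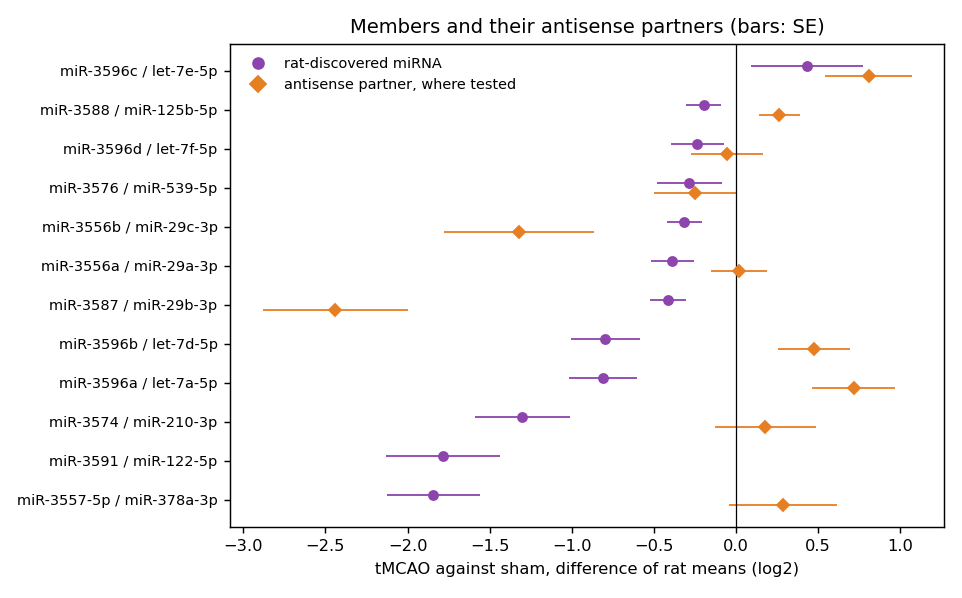
tMCAO against sham, difference of rat means on the log2 scale with its SE, for the 12 tested members with a reverse-complement partner (purple circles) and for the partner where it was tested (orange diamonds). For miR-3557-5p, miR-3596a, miR-3596b, miR-3556a and miR-3588 the 2 symbols lie on opposite sides of 0, as for miR-3574, whose partner was mostly not above the limit after tMCAO. For miR-3587, miR-3556b, miR-3596c, miR-3596d and miR-3576 they lie on the same side, and miR-122-5p, the partner of miR-3591, was not tested.

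Of the 4 members that have a seed in common with another miRNA, 3 were tested and none passed the threshold after tMCAO. miR-3568 differed by 0.00 (SE 0.16, adjusted p = 0.995), miR-3573-5p by -0.21 (SE 0.21, adjusted p = 0.504) and miR-3596d as given above, while miR-3586-5p was not tested. miR-3573-3p, the other arm of miR-3573-5p, differed by 0.08 (SE 0.26, adjusted p = 0.85).

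In single regions no member passed the threshold after tMCAO. In core limma called 0 of 28 (background 3.38%), with 7 at an unadjusted p under 0.05 (background 21.8%). The methods' t-test called none after adjustment and 10 before it. In peri limma called 0 (background 0.564%), with 8 at an unadjusted p under 0.05 (background 15.2%), and the methods' t-test 0 and 11. Before adjustment, a share over all probes is given for limma alone. The unadjusted counts from the methods' own test, here and below, therefore cannot show whether members stood out from the other probes. The groups did not overlap for 13 members in core (background 41%) and 13 in peri (background 31.6%). miR-3591 differed by -2.08 in core (adjusted p = 0.0922) and by -1.49 in peri (adjusted p = 0.179). miR-3557-5p differed by -1.57 in core (adjusted p = 0.104) and by -2.12 in peri (adjusted p = 0.160), and neither region alone passed. Fitted on the sham and tMCAO arrays alone, 2 members passed in core (miR-3557-5p and miR-3594-5p), 7.14% of members against 7.52% of all probes, and 3 in peri (miR-3557-5p, miR-3574 and miR-3591), 10.7% against 5.08%. Core and peri were themselves compared within the sham rats, where limma called 0 members (background 0%), with 0 at an unadjusted p under 0.05 (background 5.45%), and the methods' t-test 0 and 5. For the change in core less that in peri, limma called 0 members for tMCAO (background 0%) and 0 for PostC (background 0%), with 0 and 1 at an unadjusted p under 0.05 (backgrounds 8.65% and 10.5%), and the methods' t-test none after adjustment and 1 and 0 before it.

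The number called in the rat means depended on single rats. It was 4 without the first sham rat (7.89% of all probes passed), 3 without the third (8.65%), 2 without the first tMCAO rat (5.26%) and 1 without the second (1.5%), and it rose to 9 without the third PostC rat (15%). The split into rises and falls rested on the third tMCAO rat, without which 8 members passed, 4 higher and 4 lower (18% of all probes). The higher ones were then miR-3594-3p, miR-3547 (1.15, adjusted p = 0.00815), miR-3596c and miR-3541 (0.72, adjusted p = 0.0150), and the lower ones miR-3557-5p, miR-3591, miR-3574 and miR-3587. With median scaling in place of loess, the median change of all probes was -0.21 and that of the 28 tested members -0.11, so these then lay above the other probes as a set, and the calls over all probes split into 26 higher and 104 lower rather than 24 and 39. The 8 members called there, 1 higher and 7 lower, were 28.6% of those tested, close to the 24.4% of all probes. With the GC trend of each array removed, 4 members (14.3%) passed, against 14.8% of all probes, so that the share called was no higher among the members.

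The PostC rats were compared with sham rats next. No member passed the threshold with limma in the rat means (background 0.188%), in core (background 0%) or in peri (background 0%). At an unadjusted p under 0.05 there were 2, 2 and 1 members (backgrounds 14.1%, 16.9% and 2.63%), and the methods' t-test gave 0 after adjustment and 1, 0 and 1 before it. In the rat means 13 of the 28 tested members were higher and 15 lower, with a median of -0.01 (0.04 over all probes), and the groups did not overlap for 2 of 28 (background 18.2%). The largest differences were a lower miR-3594-5p, -0.55 (SE 0.25, adjusted p = 0.352), and a higher miR-3593-3p, 0.86 (SE 0.34, adjusted p = 0.290). The latter rested on the third PostC rat, with rat means of 6.77, 6.83 and 8.29 in PostC rats, and was 0.37 without it (adjusted p = 0.265). They were followed by miR-3587 at -0.34 (adjusted p = 0.260), miR-3559-5p at -0.30 (adjusted p = 0.534), miR-3591 at 0.49 (adjusted p = 0.550) and miR-3574 at 0.39 (adjusted p = 0.581). miR-3593-5p, the other arm of miR-3593, was never detected, and miR-3559-3p and miR-3557-3p were each detected on 1 array. For miR-3557-5p the difference was -0.17 (SE 0.28, adjusted p = 0.829), which does not show that PostC and sham rats were equal.

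**Figure D5:**
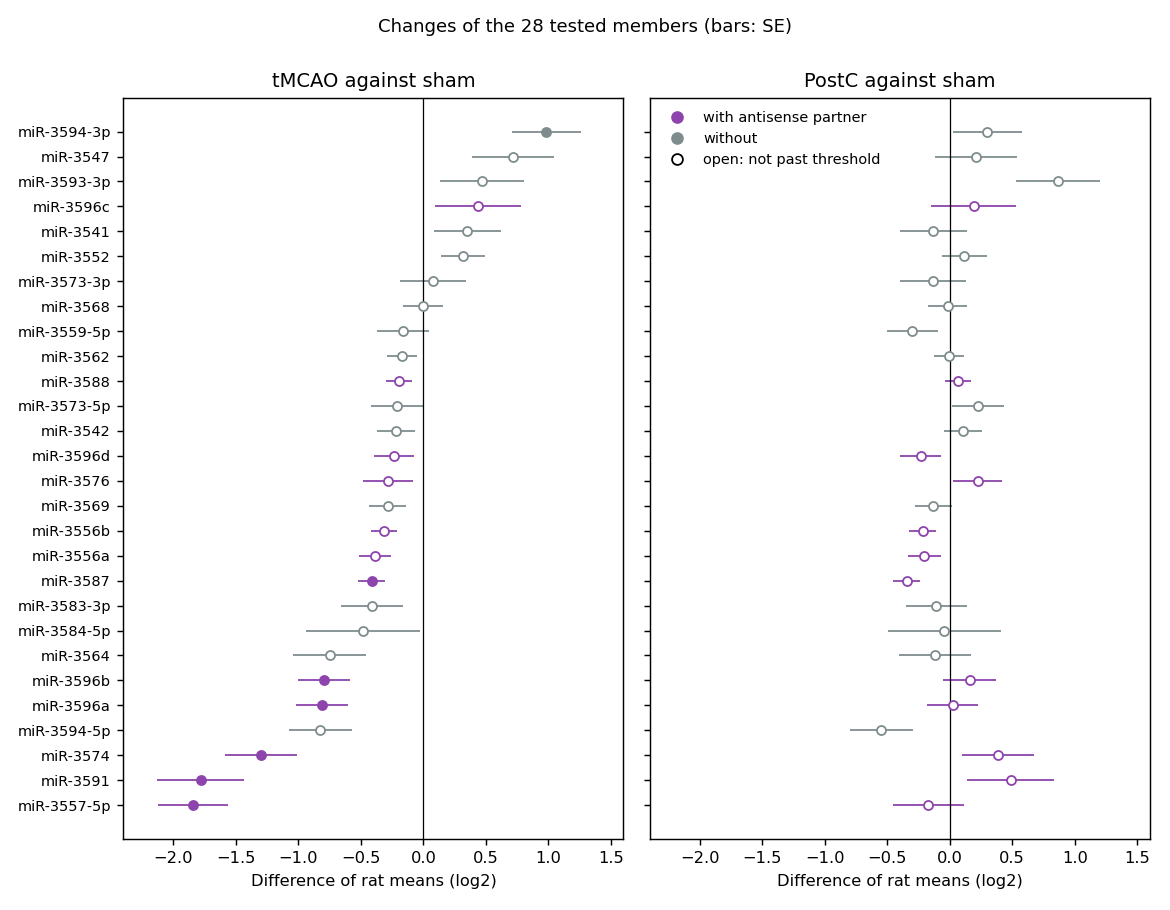
Difference of rat means on the log2 scale with its SE for the 28 tested members, in tMCAO against sham (left) and PostC against sham (right), both in the order of the left panel; purple members have a reverse-complement partner on the array, grey ones do not, and filled points passed the threshold. The left panel has 7 filled points, 6 of them purple and below 0, and the right panel has none; the panels share the sham rats.

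Set directly against the tMCAO rats, PostC rats had higher levels of 5 of 28 members (17.9%) in the rat means, where 5.64% of all probes passed and 5.08% did so upward. Without the detection filter 4 of 66 members (6.06%) passed, against 4.07% of all probes. Before adjustment 8 members had a p under 0.05 (background 18.4%). The comparison uses the tMCAO rats that the comparison with sham also used, so the 2 are not independent. miR-3591 was 2.27 higher on the log2 scale (SE 0.35, adjusted p = 0.00643), miR-3574 1.69 higher (SE 0.29, adjusted p = 0.00798) and miR-3557-5p 1.67 higher (SE 0.28, adjusted p = 0.00798). miR-3596b was 0.96 higher (SE 0.21, adjusted p = 0.0249) and miR-3596a 0.83 higher (SE 0.21, adjusted p = 0.0383). The rat means of all 5 were above those of the tMCAO rats in 3 of 3 PostC rats. miR-3591 was above the limit on 5 of 6 PostC and 1 of 6 tMCAO arrays, miR-3574 on 5 and 6, miR-3557-5p on 3 and 0, miR-3596a on 3 and 1 and miR-3596b on 3 and 0. For miR-3557-5p and miR-3596b, above the limit on no tMCAO array, the fitted differences do not measure the size of the change. Nor do those of miR-3591 and miR-3596a, above it on 1 of 6. Over the alternatives these ran from 2.04 to 4.76 and from 0.62 to 2.42. All 5 have a reverse-complement partner, and none of the partners tested passed the threshold: miR-378a-3p differed by -0.08, miR-210-3p by 0.20, let-7a-5p by -0.47 and let-7d-5p by -0.32, with adjusted p from 0.371 to 0.935.

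Over all 66 members with no filter, 45 were higher and 21 lower in PostC than in tMCAO rats, with a median of 0.05 (0.00 over all probes). The groups did not overlap for 12 of the 28 tested (background 26.1%). The lowest values were those of miR-3594-3p, -0.68 (SE 0.28, adjusted p = 0.212), miR-3547, -0.51 (SE 0.33, adjusted p = 0.470), and miR-3541, -0.48 (SE 0.27, adjusted p = 0.389). In core 2 members passed (background 2.26%, and 2.07% for rises) and 8 had an unadjusted p under 0.05 (background 13.3%). The 2 were miR-3591, 3.43 higher (SE 0.57, adjusted p = 0.0166), and miR-3574, 2.32 higher (SE 0.44, adjusted p = 0.0292). miR-3591 was above the limit on 3 of 3 PostC core arrays and 1 of 3 tMCAO core arrays, and miR-3574 on all 6. The fitted difference of miR-3591 therefore does not measure the size of its change, and it ran from 3.24 to 7.23 over the alternatives. In peri limma called 0 (background 0%), with 2 at an unadjusted p under 0.05 (background 5.83%), and the methods' t-test 0 and 0. For 3 of the 5 members (miR-3591, miR-3574 and miR-3557-5p) the peri array of the third PostC rat lay within the range of the tMCAO peri arrays, and for miR-3596a and miR-3596b, at 7.08 and 6.99, it lay below them.

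These counts too rested on single rats. In the rat means 3 of the 5 calls were left without the first or the second tMCAO rat and without the first or the second PostC rat. Without the third tMCAO rat 6 passed (7.33% of all probes), the 3 rises of miR-3557-5p, miR-3574 and miR-3591 and 3 falls, those of miR-3541 (-0.85, adjusted p = 0.0124), miR-3547 (-0.94, adjusted p = 0.0268) and miR-3594-3p (-0.98, adjusted p = 0.0366). In core the 2 calls fell to 0 without the first tMCAO, the second tMCAO or the third PostC rat and to 1 without the first or the third sham rat. Over the 23 alternatives the core call of miR-3574 was lost in 10 and that of miR-3591 in 5. Without the third PostC rat, whose 2 arrays stood apart in opposite directions, 6 members passed in peri (11.1% of all probes): miR-3557-5p, miR-3564, miR-3574, miR-3584-5p, miR-3588 and miR-3591. The calls of miR-3557-5p, miR-3574 and miR-3591 in the rat means were each lost in 1 of 23 alternatives, the methods' t-test (adjusted p = 0.128, 0.128 and 0.0711). Those of miR-3596a and miR-3596b were lost in 12 and 8.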

How the data were processed

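The authors deposited spot values, the median intensity of the pixels in Cy5 with nothing subtracted or scaled, and a table of intensities that they had background-subtracted and normalized by locally weighted regression. The labels name a miRNeasy kit, the paper Trizol. Here the spot values were passed through normexp with an offset of 50, all spots entering its fit, and log2 values of the miRNA spots were normalized by cyclic loess over 18 arrays. The 4 spots of a probe were averaged. Arrays give no local background, so the limit planned per spot was set from the empty spots. Probes detected on at least 3 arrays entered limma 3.58.1 in R 4.3.3 (lmFit, eBayes with trend, Benjamini-Hochberg at 0.05), with the rat as replicate and the 3 groups sharing the spread. p-values measure the spread between these rats. The fit was tested on simulated data. Fold changes are relative to the other miRNAs.

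The members and lists were chosen with earlier results of these data known. Named members are those called, the 3 largest rises and falls in the rat means, the other arms of these, and tested members with a reverse-complement or same-seed partner. The partners and the 17 tissue-marker miRNAs were the other names planned. Alternatives were quantile and median scaling, plain or no background correction, the deposited table with a floor of 50, other filters and limits, median spots, a GC correction, no variance trend, the methods' t-test, a fit on only the groups compared, the replicate block and leaving out each rat. A detection count without 1 PostC core array was added after seeing the data. Sequences are those listed with the array, and no genome was used here.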

Additional observations from a re-analysis of the deposited data

Results flagged for a closer look

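For miR-3594-3p the core and peri arrays of a rat differed in opposite directions in the 2 conditions. Core less peri was above 0 in each of 3 tMCAO rats, with a mean of 0.684 log2 units, and below 0 in each of 3 sham rats, with a mean of -0.213. The difference between them, 0.897 (SE 0.47), did not pass limma's test (adjusted p = 0.626). The pattern was found by searching the tested members for it, and its share over all probes was not counted. In this contrast the tMCAO and sham rats did not overlap for 17.9% of tested members and 28.9% of all probes.

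Of the 38 members left out of the tests, 17 were above the empty-spot limit on at least 1 tMCAO or PostC array and on no sham array. Of these, 15 were detected on the third PostC core array and 10 on no other array, and 36 other probes were likewise detected on that array alone. The count of 17 was not repeated among the other probes. With fewer sham arrays than tMCAO and PostC arrays together, it cannot be read as a result about the members. Another 2 untested members, miR-3553 and miR-3571, were detected on sham arrays.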

How the results depend on the processing

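The members called, and the 3 largest rises and falls in each comparison of rat means, kept their sign under every alternative that gave a value, although miR-3587 turned relative to the other probes with median scaling. Medians over the members did not all keep theirs: that of PostC against sham, -0.01, was 0.17 with plain background subtraction, and that of PostC against tMCAO in core, 0.24, was -0.03 without the third PostC rat. Without that rat the medians of PostC against sham also turned. In core 0.09 became -0.27, in peri -0.13 became 0.15, and for the core change less the peri change 0.12 became -0.21. With median scaling that of PostC against tMCAO in peri went from 0.12 to -0.01. Other medians that turned lay within 0.1 of 0 in the setting reported. Counts of members called that moved by over 1.5 times are given against 7 in the rat means of tMCAO against sham, 0 in its core and 0 in its peri, and 5 in the rat means and 2 in the core of PostC against tMCAO. Plain background subtraction gave 4, 3 and 4 in the rat means, the rat means of PostC against tMCAO and its core, with the first split into 2 higher and 2 lower. For that first count 8.08% of all probes passed. A count without such a share beside it does not show whether the members or all probes moved. The GC correction gave 4 and 3 in the rat means, where 14.8% and 5.26% of all probes passed. The methods' t-test gave 2, where 4.32% of all probes passed, 1 and, in the PostC core, 0. Median scaling gave 8 in tMCAO peri, where 24.1% of all probes passed. With only the groups compared, 2 passed in tMCAO core, 3 in tMCAO peri and 1 in PostC core. Leaving out each rat gave 1 to 9, 0 to 2 and 0 to 3 for tMCAO against sham in the rat means, core and peri, 3 to 6, 0 to 3 and 0 to 6 for PostC against tMCAO, 0 to 1 for the core change less the peri change of PostC against sham (1 without the second PostC rat) and 8 to 9 members detected per array. The limit from dim miRNA spots gave a median of 23.5 members detected per array rather than 8.5.

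Deviations from the group means gave r from -0.511 to 0.493 between core and peri of the same rat. Between same-numbered rats of different groups, in the same region, r ran from -0.448 to 0.443. These correlations cannot show whether samples are paired, and core and peri stayed paired by the rat named in the labels. With the replicate block 4 members passed in the rat means of tMCAO against sham, where 8.08% of all probes did. In the rat means of PostC against tMCAO 3 passed, and none (0) in the PostC core. Requiring detection on all 18 arrays left no member to test, and miR-3587 and miR-3593-3p had no value in 1 alternative each. The limits on precision are the 3 rats in each group and the dimness of the members: 22 of the 28 tested were detected on fewer than 10 arrays. Plain background subtraction gave larger sizes for dim members, -4.87 for miR-3557-5p, -4.04 for miR-3591 and 3.25 for miR-3547 after tMCAO, and miR-3547 passed the threshold there (adjusted p = 0.0349) and without the third tMCAO rat (0.00815).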

Other observations

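The third PostC rat gave the array with most members detected, 45 in core, and the array with fewest, 0 in peri. The tissue-marker miRNAs of blood were uneven over the arrays: miR-451-5p was detected on 18, miR-486 on 9 and miR-144-3p on none, and the leukocyte miRNAs miR-223-3p, miR-142-3p and miR-155-5p on 4, 1 and 3.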
